A study of Mus musculus with 20 samples.

Results

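Collagen VI and the fibril-associated collagens were followed through 6 genes: Col6a1, Col6a2 and Col6a3, which encode the chains of collagen VI, and Col12a1, Col14a1 and Col16a1, which encode collagens XII, XIV and XVI. A probe set was used when the array annotation gave it exactly 1 of these genes, and where a gene had several, the brightest on average over the 20 arrays stands for it. All 6 genes had a probe set, 9 in total, and they are 6 of the 17097 genes measured. Each of 20 female mice gave 1 array of RNA from sorted dermal fibroblasts, and the mice form 4 groups of 5. The sort kept Pdgfra- and CD34-positive cells and left out cells carrying CD45, CD117, CD24, CD31 or EpCam.

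Old CR mice entered at 9 months of age, ate a normal diet (ND) for 2 months and were then under 30% caloric restriction (CR) for 7 months. Old CR-ND mice entered at the same age, had the 7 months of restriction first and ate the normal diet for the last 2 months. Old ND mice had free access to the normal diet over the 9 months. Collection of the old groups was at 18 months. Young ND mice were 4 weeks old and ate the normal diet freely for 4 weeks. No strain is given in the labels used here. The labels do not say whether 4 weeks was the age at the start or at the end of the feeding, so the age of Young ND mice at collection is not settled. RNA of 10000 sorted cells per mouse was amplified over 20 cycles, and with such a sample fewer cells of 1 kind and less RNA per cell cannot be told apart.

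Collagen VI is built from an alpha1, an alpha2 and an alpha3 chain that join into 1 triple-helical unit, which the cell links into larger units before secretion and which then form beaded microfilaments close to the cell surface. In human patients, mutations of its genes cause Bethlem myopathy and Ullrich muscular dystrophy, in which the skin can be affected too. Collagens XII and XIV coat the surface of collagen I fibrils and carry long non-helical arms that reach between fibrils. Collagen XVI, a related collagen, lies in the upper dermis beside fibrillin microfibrils and fibrils.

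All values are log2 array levels, a change is a difference of group means on that scale with the standard error from limma, and an adjusted p is limma's after Benjamini-Hochberg adjustment over the 17097 genes. A gene rose or fell only where the adjusted p was under 0.05. The array median lay between 5.27 and 5.34, 0 pairs of arrays held identical values, and precision is limited by having 5 arrays per group. The lower quartile of Old ND replicate 2 was 4.25, against at most 4.18 on the other 19 arrays, and results without that array are given where they bear on a call. The bracketed numbers in the sample titles form 2 separate runs, 13 arrays in the first and 7 in the second, and Old CR has 4 arrays in the first and 1 in the second while the other groups have 3 and 2 each. What the runs stand for is not stated in the labels. In fits of the second run alone, the lone Old CR array is assumed to vary like the other groups, so only the changes are given for it. Cd34, a marker of the sort, averaged 11.23 in Old CR, 11.19 in Old CR-ND, 11.01 in Old ND and 11.30 in Young ND, and Pdgfra, the other, averaged 5.90, 6.08, 6.20 and 5.71 in the same groups. The summed level of 10 dermal fibroblast markers lay between 15.01 and 15.23 on every old array and between 15.23 and 15.27 in Young ND.

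Of the collagen VI chains, alpha3 had the widest range of group means. Col6a3, whose C-terminal end is cut off as the fragment endotrophin, read 8.92, 8.86, 8.97, 8.38 and 8.73 in Old CR. It read 10.07, 10.01, 9.09, 9.36 and 9.72 in Old CR-ND, 10.36, 9.55, 10.76, 9.63 and 9.15 in Old ND, and 10.73, 10.24, 9.98, 9.87 and 10.12 in Young ND. Every Old CR array lay below every array of the other 3 groups. The means ± SD were 8.77 ± 0.24 in Old CR, 9.65 ± 0.42 in Old CR-ND, 9.89 ± 0.65 in Old ND and 10.19 ± 0.33 in Young ND.

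Col6a2, the alpha2 chain, had the tightest Old CR values of the 6 genes, at 9.53, 9.47, 9.50, 9.42 and 9.46. Its levels were 10.39, 10.35, 9.27, 9.73 and 9.88 in Old CR-ND, 10.68, 10.00, 10.89, 9.86 and 9.54 in Old ND, and 10.98, 10.70, 10.51, 10.35 and 10.40 in Young ND. The highest Old CR array (9.53) lay just under the lowest Old ND array (9.54) and above Old CR-ND replicate 3. Its mean was 9.48 in Old CR, 9.92 in Old CR-ND, 10.19 in Old ND and 10.59 in Young ND. The SD was 0.042 in Old CR, a spread smaller than that of all but 2.7% of genes in that group, and 0.570 in Old ND, where 98.4% of genes had a smaller one. The difference between these spreads was not tested.

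Col6a1, the alpha1 chain, read 10.88, 10.80, 10.97, 10.83 and 10.88 in Old CR, 11.34, 11.49, 10.74, 10.98 and 11.13 in Old CR-ND, 11.64, 11.32, 11.78, 11.23 and 10.94 in Old ND, and 11.77, 11.57, 11.44, 11.27 and 11.36 in Young ND. The Old CR arrays all lay below the Young ND arrays and overlapped the lowest array of each of the other old groups. The means ± SD were 10.87 ± 0.065 in Old CR, 11.14 ± 0.295 in Old CR-ND, 11.38 ± 0.33 in Old ND and 11.48 ± 0.20 in Young ND. The group means of each chain were ordered Old CR, Old CR-ND, Old ND and Young ND from low to high. No neighbours in that order differed past the threshold for any of the 3 chains. For each chain the gap between Old CR-ND and Old CR was wider than the other 2 gaps, at 0.88 for Col6a3, 0.45 for Col6a2 and 0.26 for Col6a1. Differences between the gaps were not tested.

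**Figure D1:**
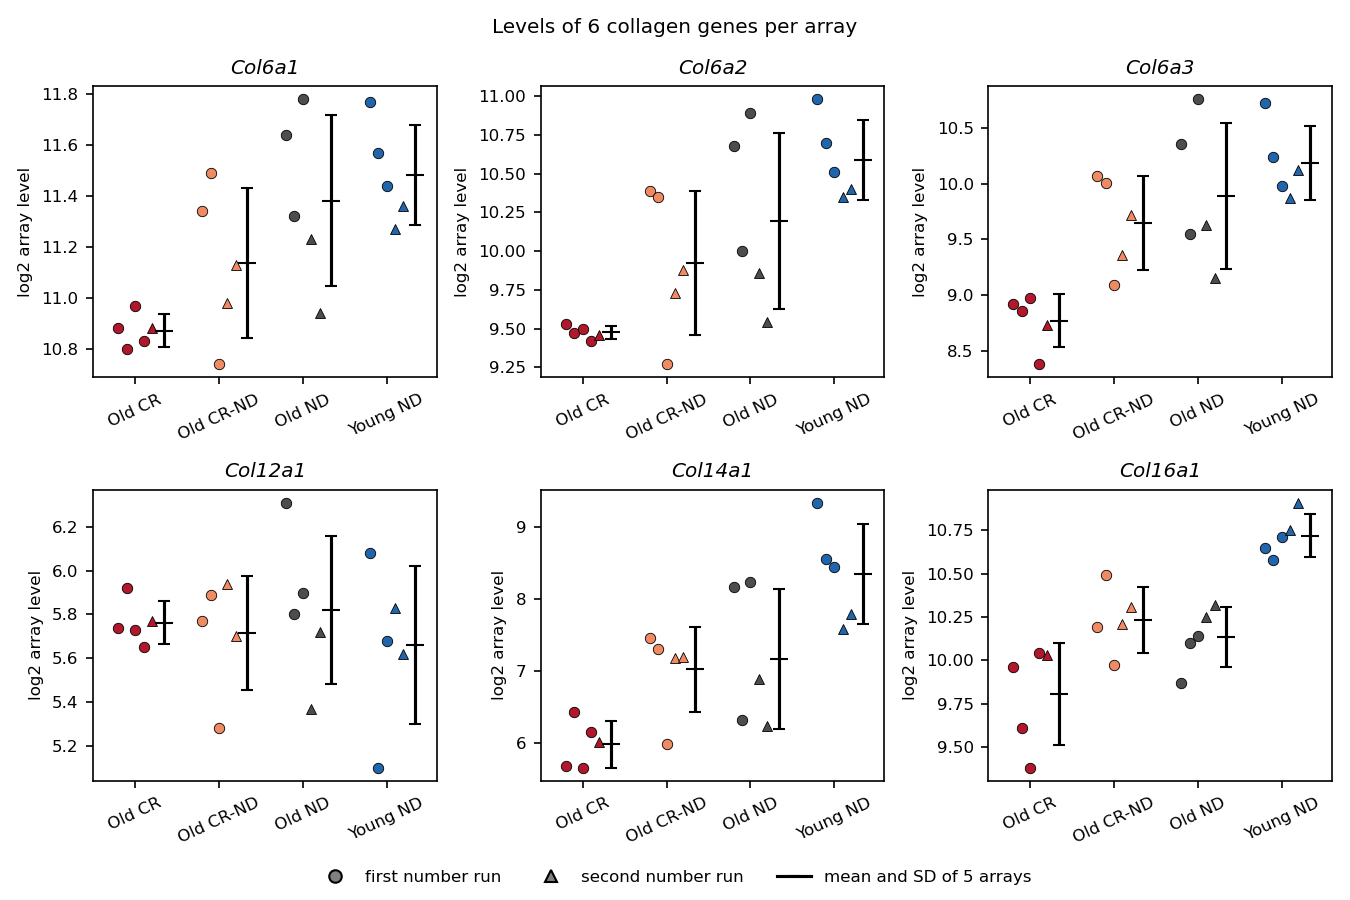
Log2 array level (vertical axes, a scale of its own in each panel) of each gene on the 20 arrays by group, with circles for the first and triangles for the second number run, and the mean and SD of 5 arrays as bars. For Col6a3 the 5 Old CR arrays, between 8.38 and 8.97, lie below all other arrays, and for Col16a1 the Young ND arrays, from 10.58 upward, lie above all old arrays.

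The DNA around the start sites of the collagen VI genes is shown here, with that of Col16a1 beside it. The levels of the 3 chains moved together from array to array, and Col16a1 did not move with them. Col14a1 did move with them but had no window. Whether the sequences bear on these levels was not tested. RefSeq windows (build GRCm38.p6, 250 bases before to 50 after the start) were found for 4 of the 6 genes, namely Col6a1, Col6a2, Col6a3 and Col16a1. Each is printed 5′ to 3′ on the gene's strand, with capitals for the letters CCCTCC on either strand, a motif chosen after the sequences were read.
Col6a1 (chr10:76725995-76726294, minus strand): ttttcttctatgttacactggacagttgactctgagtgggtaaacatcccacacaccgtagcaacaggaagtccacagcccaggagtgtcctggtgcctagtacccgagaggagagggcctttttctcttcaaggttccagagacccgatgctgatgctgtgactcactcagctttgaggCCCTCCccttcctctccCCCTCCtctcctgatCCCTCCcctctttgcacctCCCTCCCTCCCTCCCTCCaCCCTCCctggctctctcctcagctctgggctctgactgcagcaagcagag
Col6a2 (chr10:76623581-76623880, minus strand): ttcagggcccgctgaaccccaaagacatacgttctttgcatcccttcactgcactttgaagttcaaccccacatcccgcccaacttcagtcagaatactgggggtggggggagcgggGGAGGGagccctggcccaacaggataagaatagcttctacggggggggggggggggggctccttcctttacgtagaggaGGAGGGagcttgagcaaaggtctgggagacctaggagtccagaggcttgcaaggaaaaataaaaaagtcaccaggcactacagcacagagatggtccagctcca
Col6a3 (chr1:90843922-90844221, minus strand): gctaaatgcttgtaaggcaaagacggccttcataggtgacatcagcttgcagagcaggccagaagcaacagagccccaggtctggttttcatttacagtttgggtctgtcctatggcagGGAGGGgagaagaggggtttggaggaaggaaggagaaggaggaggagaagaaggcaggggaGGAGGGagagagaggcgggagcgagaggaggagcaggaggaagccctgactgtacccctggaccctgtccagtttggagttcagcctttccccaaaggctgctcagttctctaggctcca
Col16a1 (chr4:130047590-130047889, plus strand): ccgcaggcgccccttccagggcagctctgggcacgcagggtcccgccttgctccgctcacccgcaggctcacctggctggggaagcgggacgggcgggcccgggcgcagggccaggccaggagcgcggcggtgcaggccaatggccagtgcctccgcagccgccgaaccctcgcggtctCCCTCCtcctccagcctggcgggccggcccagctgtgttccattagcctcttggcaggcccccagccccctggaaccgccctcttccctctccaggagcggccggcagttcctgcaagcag

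CCCTCC, or GGAGGG on the other strand, occurred 8 times in the Col6a1 window with overlapping matches counted, 2 times in the Col6a2 and Col6a3 windows and 1 time in that of Col16a1. A second Col6a2 start, whose window was not printed, held 3 matches. Of the 32851 windows of this length in the table, 39.2% held at least 1 match, 14.3% at least 2 and 2.10% at least 4. The letters GGGCGG (a GC box) on either strand were absent from the Col6a1 and Col6a3 windows and present in those of Col6a2 and Col16a1 and in 35.7% of all windows. TATAAA, which 13.6% of windows hold on either strand, was in none of these windows, and TGANTCA (AP-1, 7.81% of windows) was found 1 time, in that of Col6a1. Such matches describe letters only. In the RefSeq table Col6a2 and Col6a1 are neighbours on chromosome 10 with 2 long noncoding RNA genes between them, and Col6a3 lies on chromosome 1.

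Late restriction was examined by setting Old CR against Old ND, which are of 1 age. All 6 genes averaged lower in Old CR, and 1 of 6 passed the test. The median change of the 6 genes was -0.61, beside 0.004 over all genes, and 0.819% of all genes tested fell in this comparison. An unadjusted p under 0.05 was reached by 5 of 6, but the share of all genes at that looser cut was not counted. For 2 of 6, Col6a2 and Col6a3, all Old CR arrays lay below all Old ND arrays, as was so for 1.02% of all genes tested. Col6a3 fell by 1.12 ± 0.25 (2.17-fold, adjusted p = 0.0212). Fitting the number run as a block gave -1.19 (adjusted p = 0.00553). The first run alone gave -1.44 and the second alone -0.66, with 1 Old CR array in it. Leaving out 1 array ended the call in 3 cases, with adjusted p = 0.0590 for Old ND replicate 1, 0.0523 for Old ND replicate 3 and 0.0651 for Old CR replicate 4. With Old ND replicate 2 left out, the change was -1.20 (adjusted p = 0.0243). Cd24a, a gene sorted against, averaged 4.83 in Old CR and 5.56 in Old ND (change -0.73 ± 0.21, adjusted p = 0.0740), and its part in this result was not tested.

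Col6a1 changed by -0.51 ± 0.14 (adjusted p = 0.0672) and Col6a2 by -0.72 ± 0.22 (adjusted p = 0.101), and neither passed. With the run as a block both did, Col6a1 at -0.56 (adjusted p = 0.0159) and Col6a2 at -0.79 (adjusted p = 0.0254). Within the first run the changes were -0.71 and -1.04, and within the second -0.20 and -0.24. Both genes also passed without Old ND replicate 5 (adjusted p = 0.0192 and 0.0342). The other probe set of Col6a2, which is not marked as cross-hybridizing by its suffix while the brighter one is, changed by -0.85 ± 0.20 and passed (adjusted p = 0.0330 over 28898 probe sets). On that probe set Old CR read 9.20, 9.24, 9.22, 9.16 and 9.40, and Old ND read 10.42, 9.76, 10.81, 9.91 and 9.57, without overlap.

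Among the fibril-associated members, Col14a1 had a change as large as that of Col6a3 but with a wider spread. Col14a1 read 5.67, 6.42, 5.65, 6.14 and 6.01 in Old CR, 7.46, 7.30, 5.98, 7.18 and 7.19 in Old CR-ND, 8.16, 6.31, 8.23, 6.89 and 6.23 in Old ND, and 9.34, 8.56, 8.44, 7.58 and 7.79 in Young ND. Old CR overlapped the 2 lowest Old ND arrays, and every Young ND array lay above every Old CR and Old CR-ND array. The means ± SD were 5.98 ± 0.33 in Old CR, 7.02 ± 0.59 in Old CR-ND, 7.16 ± 0.98 in Old ND and 8.34 ± 0.70 in Young ND, the same order as for the collagen VI chains, and no neighbours in it differed past the threshold. The change in Old CR against Old ND was -1.19 ± 0.39 (adjusted p = 0.122), with -1.60 from the first run alone and -0.55 from the second alone. The gene has 2 dimmer probe sets. The dimmest, with 4.16 ± 0.17 in Old CR and 5.00 ± 0.48 in Old ND, passed with a change of -0.85 ± 0.19 (adjusted p = 0.0239 over 28898 probe sets). The other, with 4.57 ± 0.24 in Old CR and 5.78 ± 0.70 in Old ND, changed by -1.21 ± 0.33 (adjusted p = 0.0589). For comparison, the lower quartile of an array lay between 4.11 and 4.25, so both dimmer probe sets read close to it in Old CR.

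Col16a1 read 9.96, 9.61, 9.38, 10.04 and 10.03 in Old CR, 10.19, 10.49, 9.97, 10.21 and 10.31 in Old CR-ND, 9.87, 10.10, 10.14, 10.25 and 10.32 in Old ND, and 10.65, 10.58, 10.71, 10.75 and 10.91 in Young ND. The old groups overlapped one another, and every Young ND array was above all 15 old arrays. The group means rank Old CR (9.80 ± 0.30), Old ND (10.14 ± 0.17), Old CR-ND (10.23 ± 0.19) and Young ND (10.72 ± 0.12) from low to high, and of the neighbours Old CR-ND and Young ND alone differed past the threshold. In Old CR against Old ND it changed by -0.33 ± 0.12 and did not pass (adjusted p = 0.184). Col12a1 had 1 probe set, at 5.76 ± 0.10 in Old CR, 5.72 ± 0.26 in Old CR-ND, 5.82 ± 0.34 in Old ND and 5.66 ± 0.36 in Young ND. All 4 means lie just under the median gene level of 5.88, the groups overlapped throughout, and in Old CR against Old ND it changed by -0.06 (95% interval -0.40 to 0.29).

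**Figure D2:**
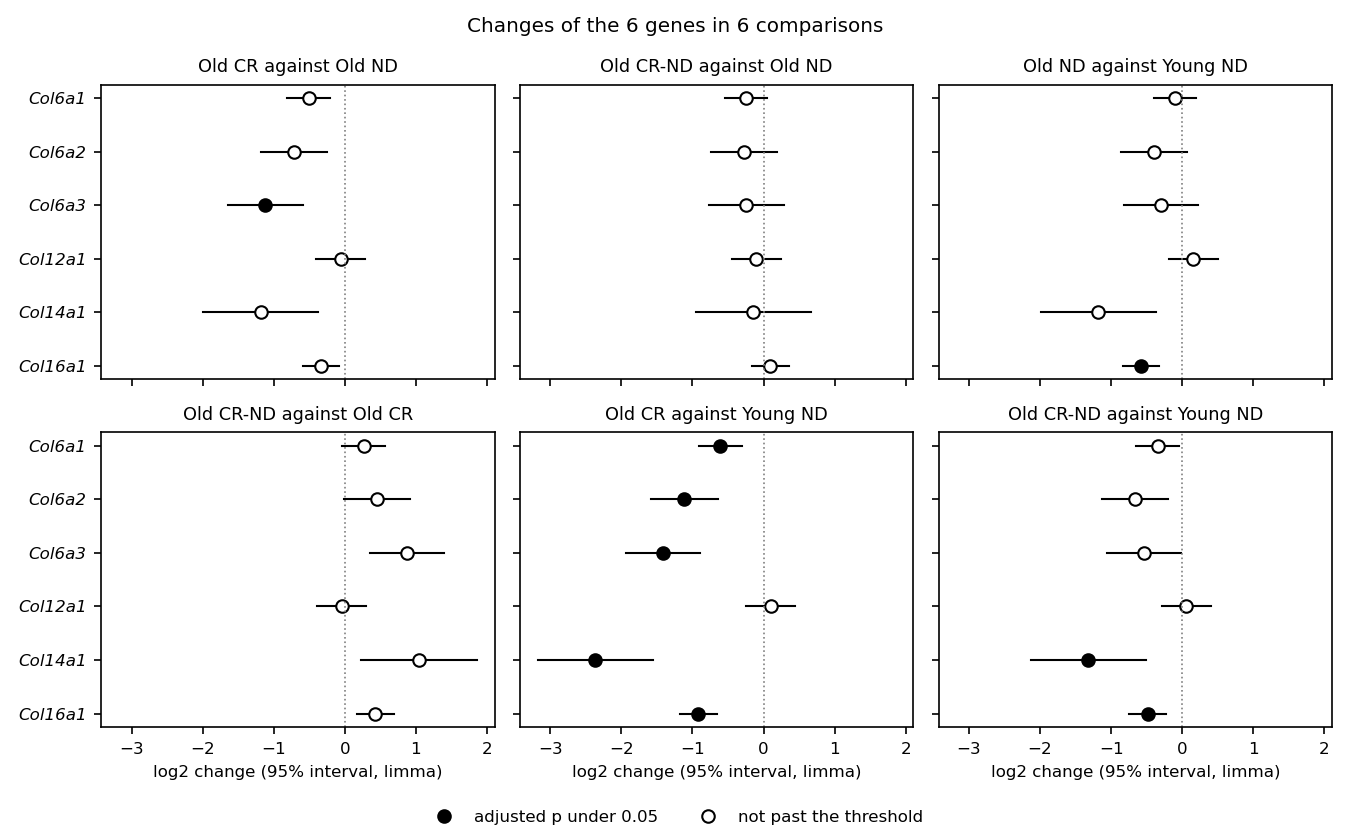
Log2 change of the 6 genes in each comparison (horizontal axis, first-named group minus second-named group) with limma's 95% interval as a line, and filled points for an adjusted p under 0.05. Filled points number 5 of 6 in Old CR against Young ND, 2 in Old CR-ND against Young ND, 1 each in Old CR against Old ND and Old ND against Young ND, and 0 in the other 2 comparisons.

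Age under the normal diet was examined by setting Old ND against Young ND. Col16a1 fell by 0.58 ± 0.12 (adjusted p = 0.00297), with all 5 Old ND arrays below all 5 Young ND arrays. Each run gave a like value, -0.61 in the first and -0.55 in the second, and no single array of the 10 was needed for the call. Thus 1 of 6 genes fell, beside 6.49% of all genes tested, and the same 1 of 6 had all Old ND arrays below all Young ND arrays, beside 4.54% of all genes tested. Col14a1 changed by -1.18 ± 0.39, just short of the threshold (adjusted p = 0.0572). A block for the run brought it past the threshold (adjusted p = 0.0316), as did leaving out Old ND replicate 1, Old ND replicate 3 or Young ND replicate 4 (adjusted p from 0.0187 to 0.0346). Both dimmer probe sets passed, the dimmest with -1.20 (adjusted p = 0.000261) and the other with -1.08 (adjusted p = 0.0388).

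The collagen VI chains did not pass in Old ND against Young ND. Col6a1 changed by -0.10 (95% interval -0.40 to 0.20), Col6a2 by -0.39 (-0.86 to 0.07) and Col6a3 by -0.30 (-0.82 to 0.23). Within the first run these changes were -0.01, -0.21 and -0.09, and within the second -0.23, -0.68 and -0.61, where Col6a2 passed (adjusted p = 0.0181). Col12a1 changed by 0.16 (95% interval -0.19 to 0.50). Cd24a fell here by 1.17 ± 0.21 (adjusted p = 0.000691), with means of 5.56 in Old ND and 6.73 in Young ND. Among the markers of other cells, Csf1r and Des also fell, by 1.20 ± 0.10 (adjusted p = 1.41e-07) and 0.35 ± 0.11 (adjusted p = 0.0407), and Tek and Cd74 rose, by 1.02 ± 0.29 (adjusted p = 0.0239) and 0.48 ± 0.15 (adjusted p = 0.0372). Of 10 dermal fibroblast markers 3 fell and 0 rose. Cd34, a marker of the sort, fell by 0.30 ± 0.09 (adjusted p = 0.0303), and Pdgfra, the other, changed by 0.49 ± 0.17 (adjusted p = 0.0699). The sums of the 5 genes sorted against lay between 7.01 and 7.44 in Old ND and between 7.48 and 8.11 in Young ND. The part of all these markers was not tested.

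Old CR set against Young ND combined the age and diet differences, and 5 of 6 genes fell while 5.56% of all genes tested did. Col14a1 fell by 2.36 ± 0.39 (5.15-fold, adjusted p = 0.000290), Col6a3 by 1.42 ± 0.25 (2.67-fold, adjusted p = 0.000583), Col6a2 by 1.11 ± 0.22 (2.16-fold, adjusted p = 0.00186), Col16a1 by 0.92 ± 0.12 (1.89-fold, adjusted p = 3.38e-05) and Col6a1 by 0.61 ± 0.14 (1.53-fold, adjusted p = 0.00665). Each of the 5 had all Old CR arrays below all Young ND arrays, which was so for 4.77% of all genes tested, and all 5 calls held without any 1 of the 10 arrays. Within the first run the changes were between -2.81 for Col14a1 and -0.72 for Col6a1, and within the second between -1.68 and -0.44 for the same genes. Over all genes 1216 rose and 951 fell, and with each array centred on its median 990 rose and 1166 fell, while the same 5 members fell. Cd24a fell in the same comparison by 1.90 ± 0.21 (adjusted p = 3.76e-06), with a mean of 4.83 in Old CR and 6.73 in Young ND. The summed level of the 5 genes sorted against lay between 6.89 and 7.12 in Old CR and between 7.48 and 8.11 in Young ND. Of 10 leukocyte markers Csf1r fell by 0.97 ± 0.10 (adjusted p = 2.85e-06) and Cd68 rose by 1.03 ± 0.32 (adjusted p = 0.0390), and of 8 endothelial markers Tek rose by 1.63 ± 0.29 (adjusted p = 0.000542). The summed leukocyte level lay between 9.08 and 9.42 in Old CR and between 9.11 and 9.34 in Young ND, and the summed endothelial level between 8.41 and 8.61 in Old CR and between 8.03 and 8.63 in Young ND. The part of these markers in the collagen results was not tested.

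The Old CR-ND group shows the levels after 2 months back on the normal diet. Against Old ND, 0 of 6 genes passed by limma, in a comparison in which 0.00585% of all genes tested changed by the same adjusted threshold. At an unadjusted p under 0.05 the count was also 0 of 6, and the share of all genes at that cut was not counted. Col6a3 changed by -0.24 (95% interval -0.76 to 0.28), and the intervals of Col6a1 (-0.55 to 0.06), Col6a2 (-0.74 to 0.20) and Col14a1 (-0.95 to 0.67) also included 0. For Col6a2, Col6a3 and Col14a1 the change was negative within the first run (-0.52, -0.50 and -0.65) and positive within the second (0.11, 0.15 and 0.62).

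Against Old CR, 0 of 6 genes passed in Old CR-ND by limma, where 0.333% of all genes tested changed by the same adjusted threshold. Before adjustment 3 of 6 had a p under 0.05, but the share of all genes at that looser cut was not counted. The 3 genes were Col6a3 (0.88 ± 0.25, adjusted p = 0.149), Col14a1 (1.04 ± 0.39, adjusted p = 0.335) and Col16a1 (0.43 ± 0.12, adjusted p = 0.149). With the run as a block the adjusted p of Col6a3 was 0.0555, and within the first and second run its change was 0.94 and 0.81. All 5 Old CR-ND arrays of Col6a3 (from 9.09) lay above all 5 Old CR arrays (up to 8.97), as they did for 0.994% of all genes tested. The comparison with Old ND and this one share the Old CR-ND arrays, and the ones before share Old ND or Old CR arrays.

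Against Young ND, 2 of 6 genes fell in Old CR-ND, beside 3.82% of all genes tested (550 rose and 653 fell, and 437 and 905 with each array centred on its median). Both had all Old CR-ND arrays below all Young ND arrays, beside 3.51% of all genes tested. Col16a1 fell by 0.49 ± 0.12 (adjusted p = 0.0177) and Col14a1 by 1.32 ± 0.39 (adjusted p = 0.0439). The Col16a1 call ended without Old CR-ND replicate 3 (adjusted p = 0.0642) or Young ND replicate 5 (adjusted p = 0.0522). The Col14a1 call ended without Young ND replicates 1, 2 or 3 or Old CR-ND replicates 2, 3, 4 or 5, left out singly (adjusted p from 0.0588 to 0.144). The dimmest Col14a1 probe set changed by -1.24 (adjusted p = 0.000320) and the other dim one by -1.63 (adjusted p = 0.00351). Col6a2 changed by -0.66 ± 0.22 (adjusted p = 0.0831), and a block for the run brought it past the threshold (adjusted p = 0.0326). Cd24a fell by 1.30 ± 0.21 (adjusted p = 0.000455) and Csf1r by 0.92 ± 0.10 (adjusted p = 9.32e-06), while Tek rose by 1.43 ± 0.29 (adjusted p = 0.00289). The sums of the 5 genes sorted against lay between 7.03 and 7.42 in Old CR-ND and between 7.48 and 8.11 in Young ND, and the part of these markers was not tested.

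Arrays that were high for 1 collagen VI chain were high for the others, beyond the groups. With 1 array per mouse, a difference between mice cannot be told from one between amplified samples or arrays. After the group mean was removed from each array, Col6a1 and Col6a2 correlated at Pearson r = 0.975 (Spearman rho = 0.948) over 20 arrays, Col6a2 and Col6a3 at r = 0.947 (rho = 0.926) and Col6a1 and Col6a3 at r = 0.933 (rho = 0.889). Col14a1 went with them, at r = 0.822 with Col6a1, 0.865 with Col6a2 and 0.818 with Col6a3 (rho = 0.745, 0.824 and 0.782). Of the 15 pairs, these 6 passed in a permutation test within groups (100000 resamples, two-sided), with adjusted p from 7.50e-05 to 0.00225 for r and from 7.50e-05 to 0.00460 for rho. The smallest unadjusted p, 1e-05, is the smallest these permutations can give. No other gene pairs were tested, so how often pairs of other genes would pass is not known. Such r values were not confined to the members. With group means removed, Fscn1 and Tnmd, picked below for likeness, had r from 0.917 to 0.970 with the collagen VI chains.

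The same arrays stood at the ends for these 4 genes. Old ND replicates 1 and 3 were the 2 highest of their group and Old CR-ND replicate 3 the lowest of its own for Col6a1, Col6a2, Col6a3 and Col14a1, and Young ND replicate 1 was the highest young array for each. Without the 2 arrays farthest from the median of the first gene, r lay between 0.742 and 0.964 for the 6 pairs, and all 6 passed. With run means also removed it lay between 0.795 and 0.962. Within the first run (13 arrays) r was 0.966, 0.928 and 0.901 for the 3 collagen VI pairs, which passed by exact permutation, and 0.791 to 0.884 for the 3 pairs with Col14a1, which did not (adjusted p from 0.0729 to 0.0883). Within the second run (7 arrays) r was between 0.828 and 0.991 for the 6 pairs, but its permutations could not reach the threshold. There the lone Old CR array equals its group mean, and the 2 arrays of each other group mirror each other around theirs. These r values thus rest on fewer independent values than arrays and are no replication.

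No pair with Col16a1 or Col12a1 passed. Col16a1 had r between -0.199 and -0.051 with the other 5 genes (adjusted p from 0.528 to 0.809). These signs depend on the runs: with run means also removed its r lay between 0.053 and 0.274, and within the first run between 0.035 and 0.287, with no pair past the threshold in either. Col12a1 had r between 0.459 and 0.522 with the collagen VI chains and Col14a1 (adjusted p from 0.113 to 0.148). These signs depend on the runs too. Within the second run, which has at most 2 arrays per group, its r with the same genes lay between -0.997 and -0.846.

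**Figure D3:**
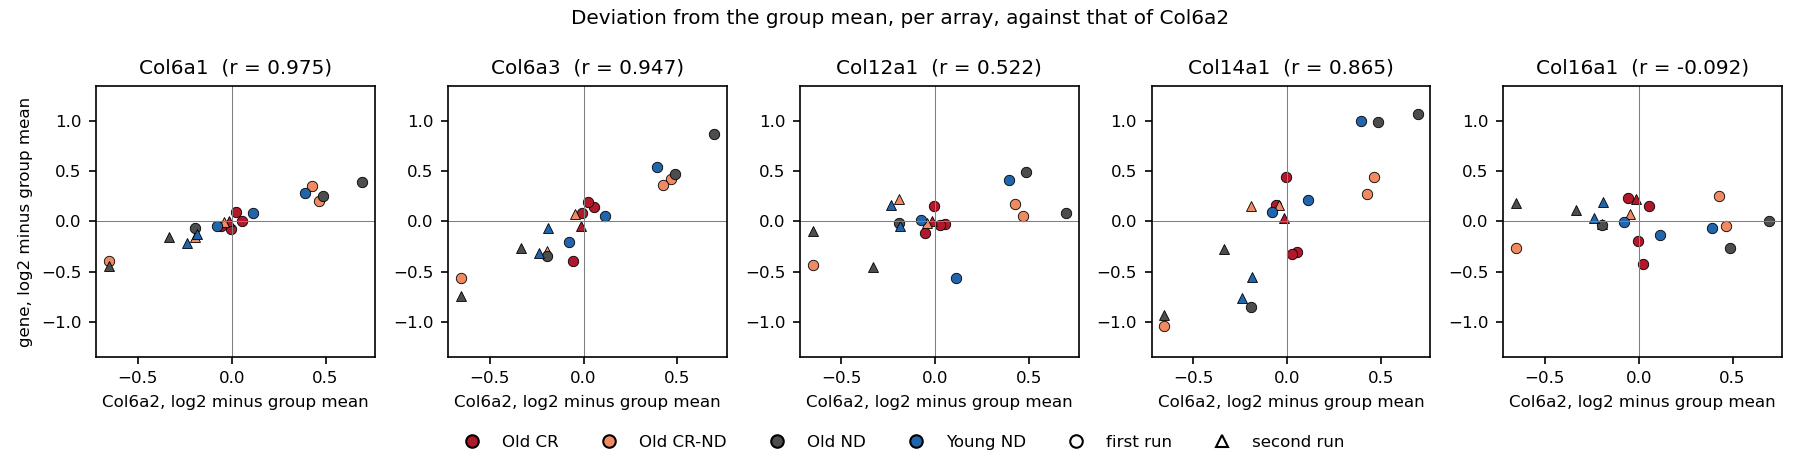
Log2 level minus the group mean of 5 genes (vertical axes) against that of Col6a2 (horizontal axes), 1 point per array, coloured by group, with circles and triangles for the first and second number run. Col6a1, Col6a3 and Col14a1 rise with Col6a2 (r = 0.975, 0.947 and 0.865), and Col16a1 has r = -0.092 with it.

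Over all 20 arrays, 3 genes that are no members were named per member for the highest Pearson r among 8238 genes brighter than the median gene, as a measure of likeness with no p. That r includes the differences between groups, so a gene picked by it tends to change where its member does. The changes given for these genes are therefore descriptions and no separate support for those of the members. Fscn1, which bundles actin filaments, and Tnmd, a membrane protein of tendon, were among the 3 for each collagen VI chain, with r from 0.966 to 0.974 for Fscn1 and from 0.957 to 0.977 for Tnmd. Col4a2, a basement membrane collagen chain, was the third for Col6a1 (0.951) and Col6a2 (0.963), and Matn2, a matrix adaptor protein, for Col6a3 (0.946). With group means removed these values lay between 0.896 and 0.970. Fscn1 fell in Old CR against Old ND by 1.58 ± 0.35 (adjusted p = 0.0193), with means of 7.18 in Old CR and 8.77 in Old ND. Tnmd fell there by 1.95 ± 0.49 (adjusted p = 0.0373), while Col4a2 (adjusted p = 0.0529) and Matn2 (adjusted p = 0.0620) did not pass.

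For Col14a1 the 3 genes were Ptprs, a receptor phosphatase (0.931), Cybrd1, an iron-regulated reductase (0.914), and Col15a1 of the basement membrane zone (0.912). With group means removed their r was between 0.738 and 0.859. In Old CR against Old ND Cybrd1 fell by 1.04 (adjusted p = 0.0213) and Col15a1 by 0.69 (adjusted p = 0.01), while Ptprs did not pass (adjusted p = 0.334). The 3 genes of Col16a1 were Serf1 (0.900), Blmh, a cysteine protease (0.891), and Pggt1b, a prenyltransferase subunit (0.890). With group means removed the r of these 3 was between 0.568 and 0.738. Serf1 and Blmh fell in Old ND against Young ND, by 1.43 ± 0.17 (adjusted p = 6.51e-06) and 0.58 ± 0.11 (adjusted p = 0.00115). Col12a1 had no gene above 0.772, the value of Ccsap.

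Partner genes were taken from 7 lists. Of the host fibril collagens, on whose surface collagens XII and XIV sit, 0 of 5 passed in Old CR against Old ND (0 at an unadjusted p under 0.05), with a median change of -0.05. Col1a1 changed there by -0.02 ± 0.08 and Col5a1 by -0.05 ± 0.12. In Old ND against Young ND 4 of 5 fell, with a median of -0.48, among them Col5a2 by 1.06 ± 0.10 and Col5a1 by 0.98 ± 0.12. Whether the fibril collagens and the collagen VI chains differed in their changes was not tested.

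Of the genes for chain assembly and secretion, 0 of 8 measured passed in Old CR against Old ND (0 at an unadjusted p under 0.05), with a median of 0.13. In Old ND against Young ND 8 of 8 fell, with a median of -0.68. P4ha2, a subunit of the prolyl hydroxylase that stabilizes the triple helix, fell by 1.69 ± 0.14, Serpinh1, the collagen chaperone, by 0.79 ± 0.08, and Sec23a, a coat protein of export vesicles, by 0.86 ± 0.12. In Old CR-ND against Young ND 6 of 8 fell, with a median of -0.54.

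Of 6 measured collagen VI receptors and surface binders 0 passed in Old CR against Old ND, and 1 had an unadjusted p under 0.05. The gene was Antxr2, a receptor that takes up collagen VI in mouse tissue, which averaged 10.81 in Old CR and 10.39 in Old ND (change 0.42 ± 0.12, adjusted p = 0.0554), and it rose in Old CR against Young ND (0.46 ± 0.12, adjusted p = 0.00957). Of 8 measured matrix binding partners 0 passed in Old CR against Old ND, with a median change of 0.04, and 2 had an unadjusted p under 0.05. These 2 moved in opposite directions, Tnxb by 0.28 ± 0.09 (adjusted p = 0.126) and Matn2 by -1.22 ± 0.34 (adjusted p = 0.0620). Matn2 fell in Old CR against Young ND by 1.24 ± 0.34 (adjusted p = 0.0182). Of 5 proteases 0 passed in Old CR against Old ND (1 at an unadjusted p under 0.05). In Old ND against Young ND 1 rose, Mmp11, which cuts the alpha3 chain of collagen VI in mouse fat tissue, by 1.51 ± 0.20, and 2 fell, Bmp1 by 0.54 ± 0.11 and Mmp2 by 0.30 ± 0.09.

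Further chains of these families made up the last lists. Of the other collagen VI chains Col6a4 and Col6a5 were measured, at 5.45 and 3.48 in Old CR and 5.53 and 3.51 in Old ND, and neither passed in any comparison. Of 6 other measured collagens of the fibril-associated class, 0 passed in any of the 6 comparisons by limma, and the number with an unadjusted p under 0.05 was 2 in Old CR against Young ND, 1 in Old CR-ND against Young ND and 0 in the other 4.

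**Figure D4:**
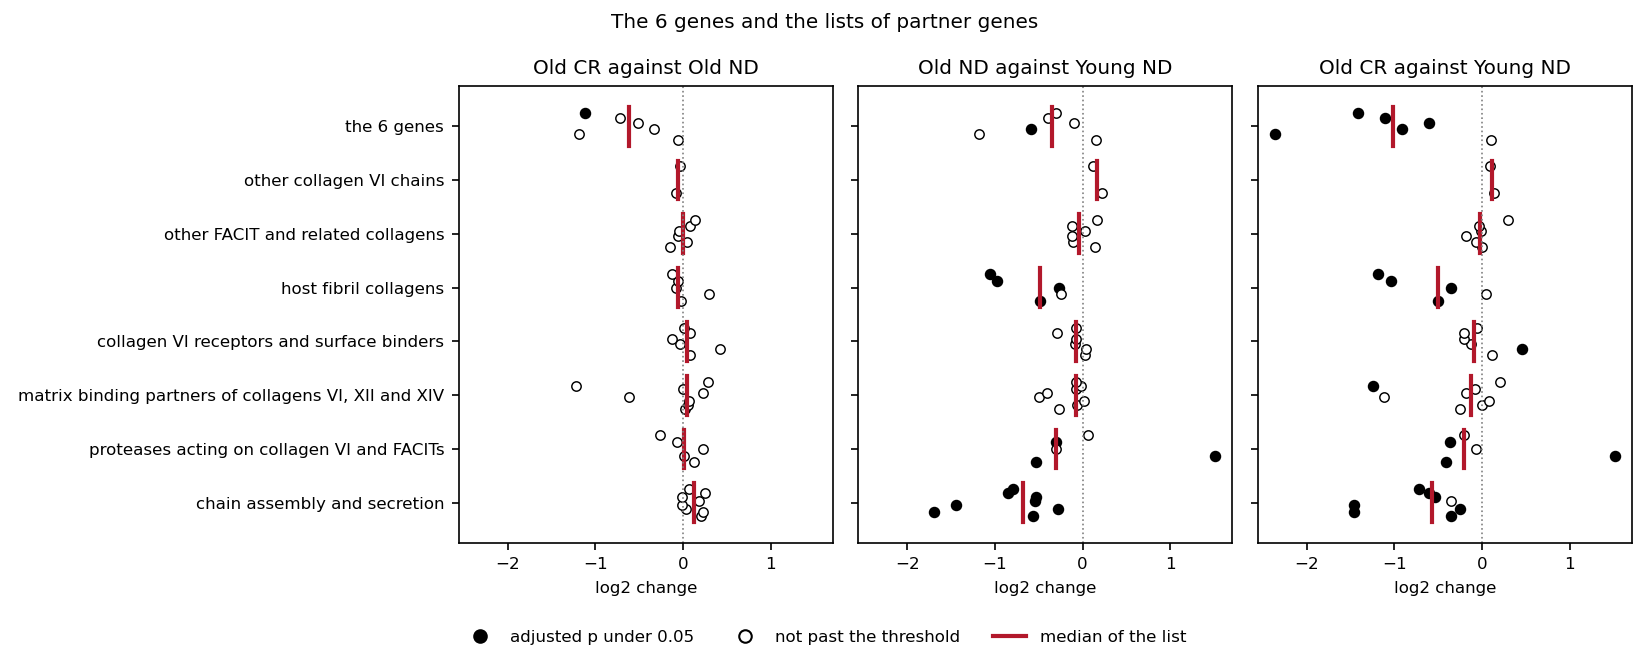
Log2 change (horizontal axes, first-named group minus second-named group) of the 6 genes and of each gene in the 7 partner lists (rows) in 3 comparisons, filled where the adjusted p is under 0.05, with the list median as a red bar. In Old CR against Old ND the only filled point is Col6a3, and in Old ND against Young ND all 8 genes of chain assembly and secretion are filled and lie below 0.

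Markers of other skin cells were also compared between Old CR and Old ND. The summed level of 6 hair follicle dermal papilla and sheath markers lay between 6.48 and 6.64 in Old CR and between 6.67 and 7.56 in Old ND, without overlap, with a median change of -0.155. Of the 6 markers 0 passed and 3 had an unadjusted p under 0.05, namely Wif1, Alx4 and Lef1 (adjusted p = 0.0559, 0.0625 and 0.170). Wif1 of this list, picked out for its values, averaged 3.44 in Old CR and 4.64 in Old ND. Corin and Sox2 averaged 3.62 and 2.96 in Old CR, and there Wif1, Corin and Sox2 all lay below the lower quartile of the arrays. The sums of 8 keratinocyte markers (10.08 to 10.91 in Old CR and 9.46 to 12.02 in Old ND) and of 6 pericyte and smooth muscle markers (7.91 to 8.21 in Old CR and 8.00 to 8.37 in Old ND) overlapped, with 0 passing. Of 10 leukocyte markers 1 passed, Cd74, which fell by 0.61 ± 0.15 (adjusted p = 0.0276), while Ptprc, the gene of CD45, changed by -0.008, and their sums overlapped (9.08 to 9.42 in Old CR and 9.22 to 9.58 in Old ND). The sums of the endothelial, mast cell, adipocyte, skeletal muscle, Schwann cell and melanocyte markers overlapped too between these groups, with 0 passing in each list in Old CR against Old ND. The part of these cells in the collagen results was not tested.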

How the data were processed

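The submitters' processing notes name RMA and affy, with versions not given in the sources used here. The deposited log2 levels, 1 per probe set and array, have 2 decimals and lie between 2.71 and 13.46. Of 45141 probe sets, 28898 name 1 gene, 551 several and 15692 none in the platform annotation. Only the first class was used. Entrez numbers gave current RefSeq symbols (GRCm38.p6) for 28689 of them, and per gene the probe set with the highest mean was kept, with no filter on dim genes.

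A limma 3.58.1 model (lmFit, then eBayes, R 4.3.3) gave each group a mean over all 20 arrays without covariates. Residual degrees of freedom were 16 and prior ones 4.19, and tests were two-sided. Further probe sets of a member were tested in a fit of all 28898. Named genes were the 6 members, up to 3 genes past the threshold per partner list and comparison, sorting markers, and 3 genes most like each member. Matn2, Tnxb, Antxr2, Col1a1, Col5a1, Col6a4, Col6a5 and markers of other cells are named beside these. Pair correlations were tested by permuting arrays within groups with numpy 2.4.6. The alternatives were the probe set rule, a filter on dim genes, centring, a second quantile normalization, array weights, a trended robust eBayes, a fit of just the groups compared, the number runs and each array left out in turn. The fits were tested on simulated data. Members and lists were chosen with earlier results of these data known.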

Additional observations from a re-analysis of the deposited data

Results flagged for a closer look

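Of the 36 groups of 5 arrays over the 9 probe sets, 2 held an array far from the others by Dixon's criterion, where chance gives about 1 in 20. Old CR-ND replicate 3 read 5.98 for Col14a1 on its brightest probe set, with the other 4 arrays between 7.18 and 7.46. The same array was the lowest of its group for all 6 genes. Young ND replicate 1 read 6.78 on the dimmest Col14a1 probe set, with the other 4 arrays between 5.94 and 6.11. Without Old CR-ND replicate 3 the Col14a1 change was 1.30 against Old CR (adjusted p = 0.181) and -1.06 against Young ND (adjusted p = 0.144).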

How the results depend on the processing

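Of 768 values of single members under alternatives, 703 kept their sign and their side of the threshold, 27 passed where they had not, 19 no longer passed and 19 changed sign. None of the sign changes concerned a value past the threshold. For Col12a1 the second run gave 0.225 in Old CR against Old ND, 0.275 in Old CR-ND against Old ND, -0.18 in Old ND against Young ND and 0.05 in Old CR-ND against Old CR. With 1 array left out, Col12a1 ranged from -0.1705 to 0.0645 in Old CR against Old ND, from -0.2165 to 0.0185 in Old CR-ND against Old ND (0.005 without Old CR-ND replicate 3), from -0.102 to 0.063 in Old CR-ND against Old CR, from -0.0405 to 0.2045 in Old CR against Young ND and from -0.0865 to 0.163 in Old CR-ND against Young ND (-0.002 without Old CR-ND replicate 4). In Old CR-ND against Old ND the second run gave 0.105 for Col6a2, 0.15 for Col6a3, 0.625 for Col14a1 and -0.025 for Col16a1. There Col14a1 ranged from -0.3755 to 0.1245 with 1 array left out, and was positive without Old ND replicate 1 (0.107), Old ND replicate 3 (0.1245) or Old CR-ND replicate 3 (0.1185). Col6a1 ranged from -0.1995 to 0.0105 in Old ND against Young ND. Leaving out single arrays gave 0 to 3 called members in Old CR against Old ND, 1 to 2 in Old ND against Young ND, 0 to 3 in Old CR-ND against Young ND, 5 to 5 in Old CR against Young ND, and 0 to 0 in the other 2 comparisons.

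In Old CR against Old ND, where 1 member passed, the count was 2 when probe sets were averaged per gene (Col6a3 and Col14a1), 2 with dim genes left out and 2 with a second quantile normalization (Col6a1 and Col6a3 in both), 3 with the run as a block and 3 in the first run (the collagen VI chains in both), and 0 with only the 2 groups compared and 0 in the second run, which have fewer arrays. In Old ND against Young ND, where 1 passed, it was 2 with the mean of probe sets, with dim genes left out, with array centring and with the run as a block (Col14a1 and Col16a1 each time), and 3 in the second run. In Old CR-ND against Old CR it was 1 with array weights (Col16a1). In Old CR-ND against Young ND, where 2 passed, it was 1 with a second quantile normalization, with the trended robust eBayes and in either run alone. The 5 pairs with Col16a1 had a negative r with group means removed and a positive one with run means also removed or in the first run. Of the 15 pairs, 6 passed over all arrays, with 3 past in the first run alone and 0 in the second. The causes of these changes under the alternatives were not tested. Called genes numbered 409 in Old CR against Old ND (1 to 795 over the alternatives), 1 in Old CR-ND against Old ND (0 to 22), 1870 in Old ND against Young ND (1049 to 2567), 57 in Old CR-ND against Old CR (1 to 235), 2167 in Old CR against Young ND (576 to 2640) and 1203 in Old CR-ND against Young ND (621 to 1754). No paired analysis was possible because replicate numbers were given in accession order and pair no samples. Col12a1 and the dimmer Col14a1 probe sets lie near or below the median gene level, which limits what they can show.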
